A study of Mus musculus with 14 samples.

Results

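The opioid peptides and their receptors were followed in ribosome-bound RNA of mouse POMC neurons. The members were the precursor genes Pdyn, Penk and Pnoc and the receptor genes Oprm1, Oprd1, Oprk1 and Oprl1, taken from the table by gene symbol, with no threshold on a measured value. All 7 members were found among the 44672 genes of the deposited table.

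Opioid peptides are cut from large precursor proteins by prohormone convertases and are released from dense-core vesicles. Pdyn encodes prodynorphin, whose products are the dynorphins and neoendorphins and act mainly on the κ-receptor, Oprk1. Penk encodes proenkephalin, the source of the enkephalins, which act on the δ-receptor, Oprd1, and the μ-receptor, Oprm1. Pnoc encodes pronociceptin, and its peptide nociceptin acts on Oprl1. The receptors couple to inhibitory G proteins, which open GIRK potassium channels, close presynaptic calcium channels and lower cyclic AMP. POMC neurons are themselves opioid neurons, since the Pomc precursor also yields β-endorphin, a ligand of the μ- and δ-receptors.

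Mice carried POMCDre+/- and ROSA26lSlrSrEGFPL10a+/- together with either LeprCre+/- or Glp1rCre+/-, and were killed in a random-fed state at 12 weeks of age. EGFP-tagged L10a, a ribosomal protein, is made only where Dre and Cre have each removed a stop cassette, so an immunoprecipitation (IP) against EGFP collects ribosome-bound RNA of the neurons that express Pomc together with Lepr (POMC Lepr+) or Glp1r (POMC Glp1r+). The 14 libraries were made from 7 pools of mice, each giving RNA before the IP (input) and after it: 4 pools of 6 mice for POMC Lepr+ and 3 pools of 12 mice for POMC Glp1r+ neurons, males and females in equal number. The POMCDre driver is a BAC transgene that, by the study's own account, also recombines in the pituitary and recombines less efficiently than Cre. The series record describes a dissected arcuate nucleus and the paper whole hypothalami, so the tissue that the input stands for is not settled.

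The measurement used for each gene was the authors' mean over the 7 pools of the ratio of IP count to input count, here called the mean IP/input ratio. A ratio of 1 can stand for as many reads in the IP as in the input or for a gene with few or no reads, since 29.2% of genes stood at exactly 1 and none at 0. It says nothing of the level of the gene. The mean joins both lines, 4 pools of one and 3 of the other, so no difference between POMC Lepr+ and POMC Glp1r+ neurons was examined. It has no spread over pools, and the depth of the libraries is unknown, so no value below carries an error and no difference between genes was tested. The ratios were not scaled to library size. The median mean ratio of the 18379 protein-coding genes that differed from exactly 1 was 1.14, with 5th and 95th percentiles of 0.503 and 2.45. The targeted neurons were recognized by their markers: Pomc had a mean IP/input ratio of 172, and the genes behind the Cre drivers, Lepr and Glp1r, had mean IP/input ratios of 6.13 and 5.98.

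The precursors share a coding feature, the start of the opioid peptides that they are known to encode. Each opioid peptide begins with a core of 4 residues, tyrosine, glycine, glycine and phenylalanine, and follows a pair of basic residues at which convertases cut; nociceptin starts with phenylalanine in place of tyrosine. The coding sequences of 21547 mouse genes (GENCODE M21, GRCm38, 1 transcript a gene) were searched in frame for the codons of such a core, with either first residue, behind 2 basic codons. Only 5 genes, 0.0232%, held one: Penk with 7 cores, Pdyn with 3, and Pomc, Pnoc and Ppm1k, a mitochondrial phosphatase, with 1 each. The pattern was written from the known peptides, so that it finds their precursors was fixed in advance. The sequences below are shown because they set the precursors of the results side by side. Each is the coding strand, 5′ to 3′, with the core codons in capitals between the basic pair and the codons that follow.
Pdyn, core 1 (chr2:129688232-129688258, minus strand): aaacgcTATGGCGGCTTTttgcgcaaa
Pdyn, core 2 (chr2:129688124-129688150, minus strand): aaacgcTATGGGGGCTTCctgcggcgc
Pdyn, core 3 (chr2:129688067-129688093, minus strand): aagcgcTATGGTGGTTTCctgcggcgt
Penk, core 1 (chr4:4134328-4134354, minus strand): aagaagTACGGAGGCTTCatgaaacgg
Penk, core 6 (chr4:4133935-4133961, minus strand): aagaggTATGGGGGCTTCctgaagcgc
Pnoc, its core (chr14:65404872-65404898, minus strand): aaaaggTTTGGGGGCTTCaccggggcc
Pomc, its core (chr12:3960367-3960393, plus strand): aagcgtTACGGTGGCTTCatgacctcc

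The 3 cores of Pdyn, which start neoendorphin, dynorphin A and dynorphin B, are each followed by a leucine codon. In Penk core 1 is followed by the methionine codon of Met-enkephalin and core 6 by the leucine codon of Leu-enkephalin. The core of Pomc starts β-endorphin. A match says only that these codons stand in the reference sequence, since no peptide was measured.

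**Figure D1:**
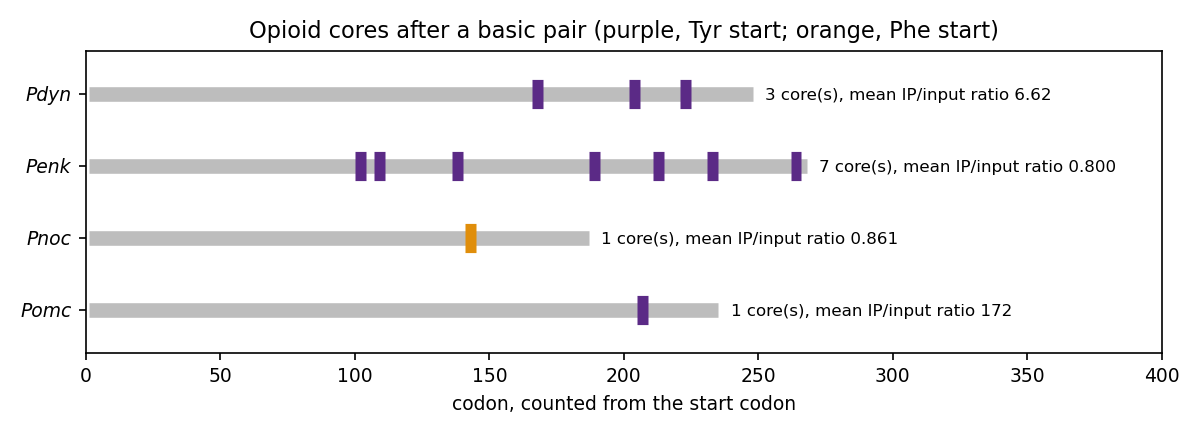
Opioid cores along the coding sequences of the precursors. The x axis is the codon counted from the start codon, grey bars are the coding sequences (248 codons in Pdyn, 268 in Penk, 187 in Pnoc and 235 in Pomc), and marks are cores behind 2 basic codons, purple with a first tyrosine codon and orange with a first phenylalanine codon. Penk holds 7 cores and has a mean IP/input ratio of 0.800, while Pomc holds 1 and has a mean IP/input ratio of 172.

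The members fell into 1 gene far above a ratio of 1 and 6 near it, and for those 6 the table does not tell an even share of reads from few reads. Pdyn stood at a mean IP/input ratio of 6.62. The other members ran from 0.725 to 1.43, and the median of all 7 was 1.15. A mean ratio at or above 2 was found for 1 member, Pdyn, and for 8.95% of the protein-coding genes. Above 1 lay 4 members, Pdyn, Oprl1, Oprm1 and Oprd1, where 62.4% of protein-coding genes did, and 3 lay below 1, where 37.6% were at or below it. No member was at or below 0.5, as 4.85% of protein-coding genes were.

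**Figure D2:**
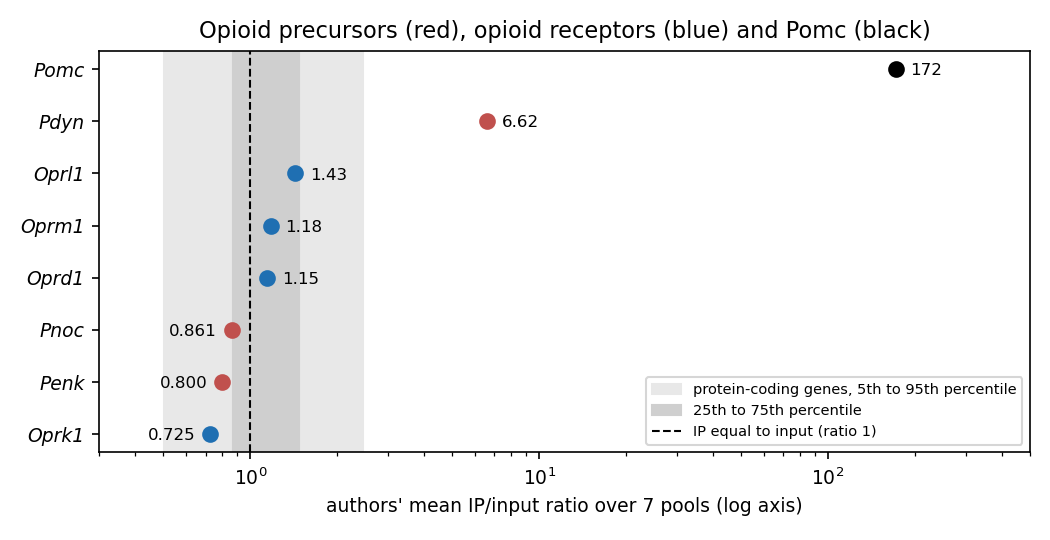
Mean IP/input ratio of the opioid genes and of Pomc. The x axis is the authors' mean over 7 pools on a log scale, points are precursors (red), receptors (blue) and Pomc (black), the dashed line marks a ratio of 1, and the grey bands are the percentile ranges of protein-coding genes. Pdyn, at 6.62, lies outside the band that ends at 2.45, and the 6 other members lie inside it.

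Among the ligands, Pdyn (ENSMUSG00000027400, chromosome 2, 129686565 to 129699844, GRCm38) stood at the 99.1th percentile of the 31613 genes with a mean other than 1. Of the protein-coding genes, 141 had a higher mean ratio. Its enrichment was 8.27 times that of Penk and 7.69 times that of Pnoc, and that of Pomc was 26.0 times higher than its own. The 7 ratios of Pdyn sum to 46.3. This mean can be carried by a few pools, and how many of them lay above a ratio of 1 cannot be read from it.

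Pdyn is also made by other hypothalamic neurons, among them the KNDy neurons of the arcuate nucleus, which make kisspeptin, neurokinin B and dynorphin, and the orexin, vasopressin and oxytocin neurons. Of the KNDy marker list 4 of 5 genes were found, (Kiss1 was not analysed here), with mean IP/input ratios from 0.411 for Tacr3, the receptor of neurokinin B, to 1.46 for Esr1, an estrogen receptor. The list had a median of 1.08, with 2 genes above 1 (Esr1 and Pgr, the progesterone receptor, at 1.41) and 2 below it. Tac2, which encodes neurokinin B itself, had a mean IP/input ratio of 0.739. Hcrt, the orexin precursor, had a mean IP/input ratio of 0.340, Avp (vasopressin) of 0.554 and Oxt (oxytocin) of 0.640. The markers of orexin, vasopressin and oxytocin neurons thus all lay below 1, while those of KNDy neurons lay on both sides of it. What part such neurons have in the ratio of Pdyn was not tested. Of protein-coding genes 62.4% were above 1 and 8.95% at or above 2. Of the 6 listed markers of AgRP neurons 4 were above 1 and 3 at or above 2, with a median of 1.92. They ran from 0.809 for Corin, a serine protease, to 12.0 for Npy5r, an NPY receptor, and Agrp and Npy had mean IP/input ratios of 3.97 and 2.84. The paper also reports Npy5r and Npy in POMC neurons, but from this same profiling. Which neurons these transcripts came from was not tested. Ghsr, the ghrelin receptor, at 0.816 and Otp, a transcription factor, at 1.01 lay near 1 or below it. Their part in the ratio of Pdyn was not tested either.

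Penk (ENSMUSG00000045573, chromosome 4, 4133531 to 4138819) stood at a mean IP/input ratio of 0.800, the 22.1th percentile of genes. Its ratios sum to 5.60, so at most 5 of the 7 pools can have been at or above 1. At least 2 had a ratio below 1, in counts not scaled to library size. At most 2 pools can have reached a ratio of 2. A noncoding gene on the opposite strand, A830012C17Rik, overlaps the Penk gene and had a mean IP/input ratio of 2.13. The libraries were made from amplified double-stranded cDNA, and the paper names no step that keeps the strand. Reads of this pair may therefore have been mixed.

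Pnoc (ENSMUSG00000045731, chromosome 14, 65400673 to 65425472) stood at a mean IP/input ratio of 0.861, the 27.9th percentile. At least 1 of the 7 pools had a ratio below 1, and at most 3 can have reached a ratio of 2. Penk and Pnoc thus had mean ratios below 1, and whether they differ from each other, 0.800 against 0.861, was not tested.

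In a list of 62 neuropeptide precursors, of which 61 were found, Pdyn ranked 7th from the highest mean IP/input ratio. Above it stood Pomc, Galp, Cartpt, Nms, Vgf and Gal, and the nearest were Gal (galanin) at 7.81 and, below it, Agrp at 3.97. Pnoc ranked 38th, between Nppb (0.929) and Nppa (0.836), which encode natriuretic peptides. Penk ranked 41st, between Nts, the neurotensin precursor, at 0.823 and Cbln2, a cerebellin, at 0.748. The list had a median mean ratio of 1.06, and 15 of its 61 genes were at or above 2, as were 8.95% of protein-coding genes. Its lowest gene was Gnrh1, the precursor of gonadotropin-releasing hormone, at 0.150.

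Among the receptors none reached a mean ratio of 2. Their median was 1.16, next to the 1.14 of protein-coding genes. Oprl1, the nociceptin receptor (ENSMUSG00000027584, chromosome 2, 181715016 to 181720985), had the highest, a mean IP/input ratio of 1.43, the 74.0th percentile. This was 1.97 times the mean ratio of Oprk1. At most 5 pools can have reached a ratio of 2.

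Oprm1, the μ-receptor of β-endorphin and morphine (ENSMUSG00000000766, chromosome 10, 6758506 to 7038198), reached a mean ratio of 1.18, the 57.8th percentile. The gene spans 279693 bases with 31 annotated transcripts, whose reads are joined in this value. The gene Ipcef1 overlaps it on the opposite strand with a mean IP/input ratio of 1.13, and Gm10945, also overlapping, had a mean of exactly 1.00. Reads of these overlapping genes may likewise have been mixed. Oprd1, the δ-receptor (ENSMUSG00000050511, chromosome 4, 132110726 to 132144486), reached a mean ratio of 1.15, the 55.8th percentile. The means of these receptors, which share the enkephalins and β-endorphin as ligands, stood 1.03 times apart. For each of them at most 4 of the 7 pools can have reached a ratio of 2.

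Oprk1, the dynorphin receptor (ENSMUSG00000025905, chromosome 1, 5588466 to 5606131), had the lowest mean IP/input ratio of all members, 0.725, at the 16.6th percentile. At least 2 of the 7 pools had a ratio below 1, and at most 2 can have reached a ratio of 2. The peptide gene and the receptor gene of the dynorphin system thus stood at opposite ends of the members, 6.62 against 0.725, with a quotient of 9.12. In the nociceptin system the order was turned, with the receptor at 1.43 and the precursor at 0.861. With no spread over pools, neither difference was tested.

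**Figure D3:**
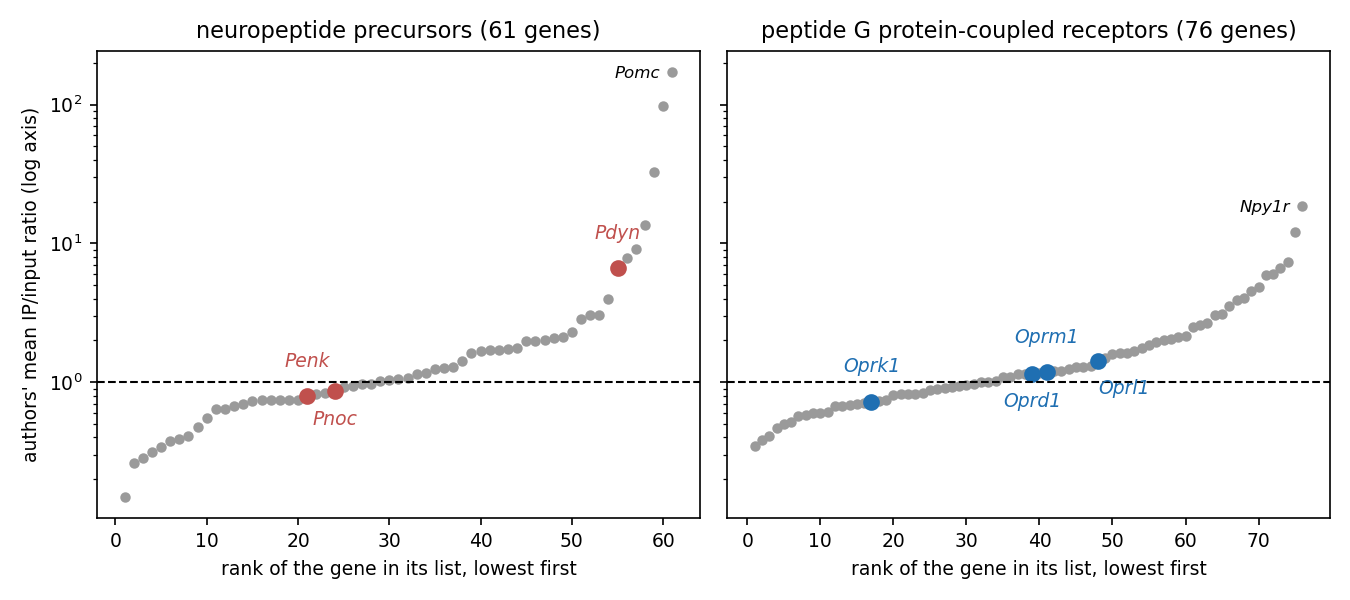
Order of the opioid genes among neuropeptide precursors and peptide receptors. The x axis is the rank of a gene in its list and the y axis its authors' mean IP/input ratio on a log scale, with members in red or blue, other genes in grey and a dashed line at 1. Pdyn sits on the steep end of the precursors at rank 7 from the top, and the 4 receptors sit between 0.725 and 1.43 in the flat middle and lower part of theirs.

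In a list of 77 peptide-binding receptors, of which 76 were found, Oprl1 ranked 29th, Oprm1 36th, Oprd1 38th and Oprk1 60th from the highest. The list had a median of 1.14, and 20 of the 76 receptors were at or above 2, as were 8.95% of protein-coding genes. The highest was Npy1r, the Y1 receptor of NPY, at 18.6. The lowest was Ednrb, an endothelin receptor, at 0.346. The nearest genes to Oprl1 were Kiss1r, the kisspeptin receptor, at 1.50 and Tacr2, a tachykinin receptor, at 1.32. Crhr2, a receptor of the corticotropin-releasing hormone family, stood between Oprm1 and Oprd1 at 1.16. Sstr3 was next above Oprm1, and Vipr2, a receptor of vasoactive intestinal peptide, next below Oprd1 at 1.14. Oprk1 stood between Tacr1, the substance P receptor, at 0.734 and Trhr2, a receptor of thyrotropin-releasing hormone, at 0.704. The somatostatin receptors, the closest relatives of the opioid receptors, had mean IP/input ratios from 1.20 for Sstr3 to 3.12 for Sstr5. All 5 were above Oprm1, at 1.18, and Oprd1, while Oprl1, at 1.43, was above Sstr2, at 1.21, and Sstr3. Whether these genes differ was not tested. Nearness in this order is one of mean enrichment only.

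The genes that act with opioid peptides mostly had mean ratios near 1. As a scale, 62.4% of protein-coding genes were above 1 and 8.95% at or above 2. Of 11 genes of prohormone processing, 9 were above 1 and 2 at or above 2, with a median of 1.32. The highest was Pcsk1, the convertase PC1/3, with a mean IP/input ratio of 2.52, and the lowest Cpe, the carboxypeptidase that trims the basic residues left after the cut, with 0.798. Of 11 peptidases that can degrade enkephalins or dynorphins, 8 were above 1 and the median was 1.29. Ece1, endothelin-converting enzyme, had the highest mean IP/input ratio at 2.41, and Mme, the neprilysin that cleaves enkephalins outside the cell, the lowest at 0.617.

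Downstream of the receptors, all 4 GIRK channel subunits were above 1, with a median of 1.63, from 1.24 for Kcnj6 to 2.11 for Kcnj3. Of protein-coding genes 62.4% were above 1, with a median of 1.14, so such counts do not by themselves show enrichment. Of the 5 inhibitory G protein α-subunits 4 were above 1, from 0.793 for Gnai3 to 1.89 for Gnaz. The 3 presynaptic calcium channel genes ran from 1.03 for Cacna1e to 1.40 for Cacna1b. Adenylyl cyclases lay lower, with 3 of 8 above 1 and a median of 0.826, from 0.571 for Adcy1 to 1.41 for Adcy6. Among the arrestins and receptor kinases 3 of 7 were above 1, from 0.710 for Grk4 to 1.67 for Grk6. The 13 RGS proteins, which shorten signals of inhibitory G proteins, had a median of 1.38, from 0.874 for Rgs6 to 2.47 for Rgs14. Of 5 other proteins named for binding opioids, 2 were above 1, and the lowest was Ackr3, an atypical chemokine receptor that takes up opioid peptides, at 0.775. None of these genes reached the mean ratio of Pdyn.

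**Figure D4:**
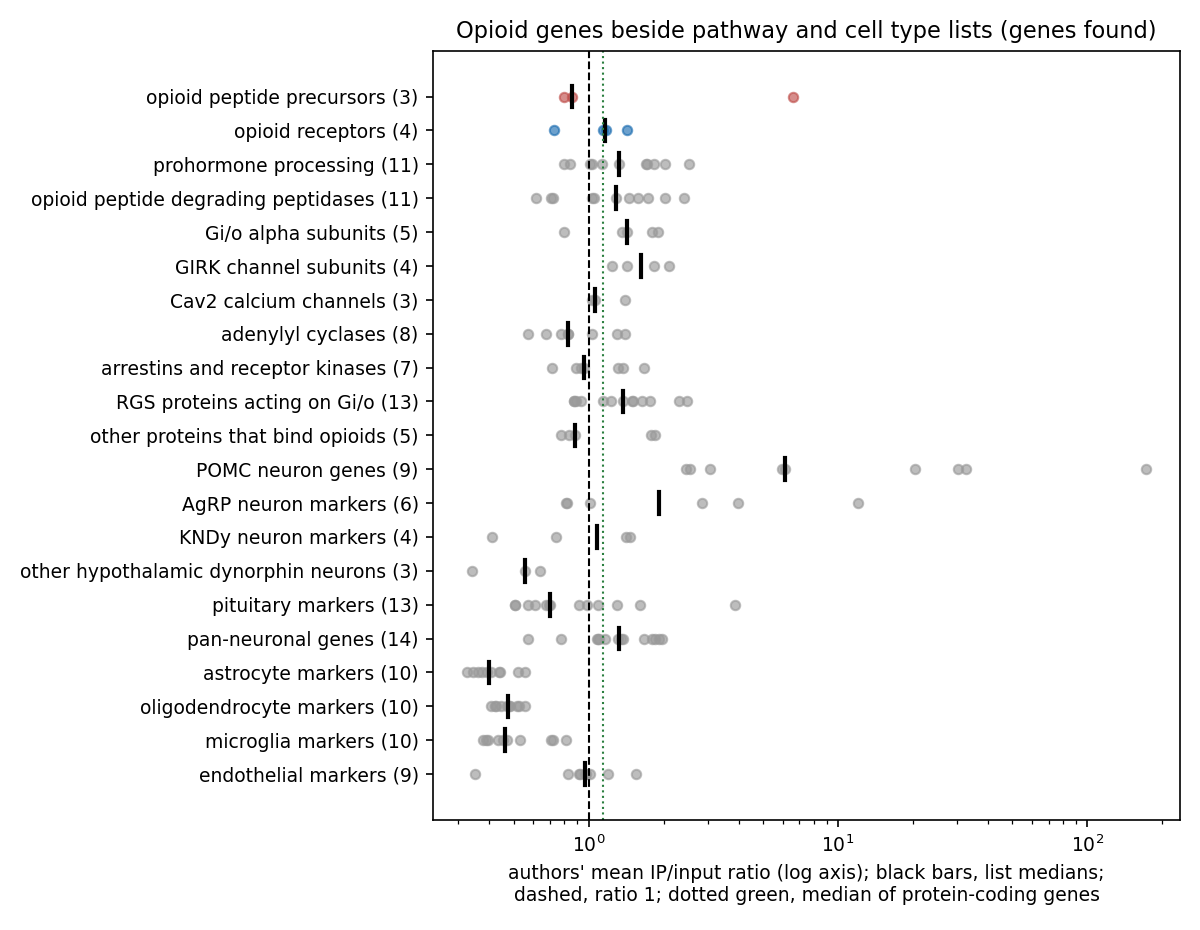
Opioid genes beside the lists of their pathway and of cell types. The x axis is the authors' mean IP/input ratio on a log scale, each point is a gene, black bars are list medians, the dashed line marks 1 and the dotted green line the protein-coding median of 1.14. The receptors straddle 1 with most of the G protein pathway lists. Pdyn, at 6.62, lies inside the range of the POMC neuron genes, 2.45 to 172. Genes of other lists lie inside this wide range too, among them Agrp, Npy, Npy5r, Tbx19 and Pcsk1. The POMC neuron list has a median of 6.13, the value of Lepr, and holds the genes used for targeting, Pomc, Lepr and Glp1r.

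Lists of cell type markers were set beside the members. All 9 genes of the POMC neuron list were at or above 2, as were 8.95% of protein-coding genes. The list ran from 2.45 for Nkx2-1, a hypothalamic transcription factor, to 172 for Pomc. It was chosen with earlier results of these data known, so this count is no independent support. It also holds Nr5a1, better known as a marker of the ventromedial hypothalamus. Pomc, Lepr and Glp1r, also in this list, are the genes that the targeting used. The 14 pan-neuronal genes had a median of 1.33, from 0.571 for Map2, a microtubule protein, to 1.96 for Uchl1, a ubiquitin hydrolase. Astrocyte, oligodendrocyte and microglia markers had medians of 0.398, 0.474 and 0.464. None of these markers was above 1, and the lowest was Slc1a3, a glutamate transporter of astrocytes, at 0.326. The highest astrocyte marker was Gfap, an intermediate filament protein, at 0.558, and the highest oligodendrocyte marker Mobp, a myelin protein, at 0.556. All 7 members lay above every astrocyte and oligodendrocyte marker of these lists. Endothelial markers had a median of 0.967, from 0.350 for Cdh5 to 1.55 for Pecam1, both adhesion proteins. Of 13 pituitary markers 4 were above 1, where 62.4% of protein-coding genes were. These markers had a median of 0.700, from 0.505 for Pitx1 to 3.85 for Tbx19, a transcription factor of Pomc-expressing pituitary cells. In tissue RNA, fewer cells of a type and less RNA per cell cannot be told apart, and this holds for the input below every ratio.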

How the data were processed

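Ribosome-bound and input RNA of 7 pools was sequenced in 14 libraries. The authors aligned reads to GRCm38.p6 with STAR, estimated gene counts with Salmon 0.14.1, formed IP/input count quotients pool by pool and passed these to DESeq2 1.26.0 for a comparison of the lines. The value used here is the deposited mean over the pools, a score: 7 times the mean was whole (tolerance 1e-06) in 100% of genes, 13059 genes (29.2%) stood at exactly 1000, and none at 0. It was divided by 1000 to give a ratio. A small constant added to each count by the authors can be inferred from these values and draws genes with few reads towards 1. The 5 other columns of values hold the authors' own comparison (log2 fold change, its standard error, statistic and p-values) and were not used, so no test was made. Counts of single libraries were not analysed here.

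Percentiles are shares of genes with a lower mean. Limits on pools follow from the sum of the ratios, since none is negative. Gene positions and coding sequences are those of GENCODE M21 (GRCm38). Searches and limits were tested on simulated data. The members and gene lists were chosen with earlier results of these data known. Named are the members, Pomc, Lepr and Glp1r, the highest and lowest gene of each list (a few are not reported here) and neighbours in the ordered lists; Tac2, Pgr, Agrp, Npy, Ghsr, Otp, Avp, the 6 precursors above Pdyn, the somatostatin receptors, Ppm1k and the overlapping genes were added after their values were seen. Python 3.11.15, numpy 2.4.6, pandas 2.3.3 and matplotlib 3.10.9 were used.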

Additional observations from a re-analysis of the deposited data

How the results depend on the processing

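The error of a mean over pools is unknown, so every change of scale or of gene set counts as a move. Divided by the median of protein-coding genes, the mean IP/input ratios were 5.79 for Pdyn, 0.700 for Penk, 0.753 for Pnoc, 1.03 for Oprm1, 1.00 for Oprd1, 0.635 for Oprk1 and 1.25 for Oprl1, and no member changed its side of 1. Divided by the median of pan-neuronal genes, they were 4.98, 0.603, 0.648, 0.886, 0.864, 0.547 and 1.08 in the same order, so that Oprm1 and Oprd1 moved below 1. Among protein-coding genes the percentiles were 99.2 for Pdyn, 19.5 for Penk, 24.4 for Pnoc, 53.0 for Oprm1, 50.5 for Oprd1, 14.8 for Oprk1 and 72.5 for Oprl1. Among every gene in the table, with those at exactly 1, they were 99.3, 15.6, 19.7, 70.2, 68.7, 11.7 and 81.6 in the same order. Of 23 list medians, 3 changed side of 1 when divided by the protein-coding median: Cav2 calcium channels (0.924), KNDy markers (0.942) and neuropeptide precursors (0.924). As geometric means 4 lists changed side, among them the opioid precursors at 1.66, where the median was 0.861. Leaving out single pools was not run, since only the mean over pools was used. No paired analysis was possible because the value used, a mean over pools of ratios that each pair an IP with its own input, holds no value of a single pool.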
